A study of Mus musculus with 8 samples.

Results

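The antioxidant enzyme genes described here are Sod1, Sod2, Sod3, Cat, Gpx1, Gpx3, Gpx4, Prdx1, Prdx2 and Nqo1, measured in the livers of 8 old dwarf mice. A gene was represented by its brightest probe set among those that the array's annotation pairs with that symbol alone. This gave 9 of the 10 genes, out of 8251 genes with such a probe set in the whole table. Both probe sets for Prdx1 (2 in all) carry a second symbol, Gm21399, so Prdx1 has no values here. All 9 measured genes had a mean intensity of at least 165.2, the level required of a probe set before it was tested.

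All 8 animals were female Ames dwarf mice of genotype df/df, which lack growth hormone, prolactin and thyroid stimulating hormone because the mutation stops the pituitary cells that make them from forming. All had been fed 30% less of a standard pelleted diet than df/df females with free access to it, and all were killed at 24 to 26 months of age. Total RNA from each frozen liver went onto its own Affymetrix U74Av2 array, and the animals are called mouse 1 to mouse 8 after the number in their labels. They form 1 group in which every animal carries the mutation and the diet, so the data hold no measure of what either does to these genes. The comparisons below are between the mice, and their p-values measure the spread between these 8 animals, which includes the technical spread of 1 array per liver.

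Superoxide dismutases turn superoxide into hydrogen peroxide, in the cytosol (Sod1, with copper and zinc), in the mitochondrial matrix (Sod2, with manganese) and outside the cell (Sod3). Catalase (Cat), held in peroxisomes, and the glutathione peroxidases and peroxiredoxins then remove the peroxide. Gpx1 and Gpx4 work inside cells, Gpx4 on lipid peroxides in membranes, while Gpx3 is the secreted form in plasma. Prdx1 and Prdx2 are cytosolic peroxiredoxins that are recharged by thioredoxin. Nqo1 reduces quinones and is a standard target of Nfe2l2 (Nrf2), a transcription factor that oxidants and electrophiles release from its inhibitor Keap1. Hepatocytes are rich in most of these enzymes, and Sod2 is known to be induced by inflammatory cytokines.

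The 250 bases upstream of the annotated start are shown for 3 of the genes, because they hold letters that match the motif classes relevant to the values below: Nfe2l2 sites, interferon gamma activated sites and TATA boxes. They are RefSeq sequences of build GRCm38.p6, 5′ to 3′ on the gene's strand, with matches to TGACNNNGC (the core of the antioxidant response element), TTCNNNGAA (the interferon gamma activated site) and TATAAA in capitals. Each match is a description of letters and not a bound site.
Sod1, chr16:90220512-90220761, plus strand: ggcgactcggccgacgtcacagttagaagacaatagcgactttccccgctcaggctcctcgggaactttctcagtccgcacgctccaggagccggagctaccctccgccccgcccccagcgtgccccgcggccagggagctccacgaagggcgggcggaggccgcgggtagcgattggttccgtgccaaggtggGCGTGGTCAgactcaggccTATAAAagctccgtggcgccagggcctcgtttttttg
Sod2, chr17:13007589-13007838, plus strand: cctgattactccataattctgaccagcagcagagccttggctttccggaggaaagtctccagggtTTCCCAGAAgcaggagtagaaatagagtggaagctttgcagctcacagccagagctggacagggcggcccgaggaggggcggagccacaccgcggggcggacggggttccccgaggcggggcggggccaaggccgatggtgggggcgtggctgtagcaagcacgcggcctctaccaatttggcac
Nqo1, chr8:107403206-107403455, minus strand: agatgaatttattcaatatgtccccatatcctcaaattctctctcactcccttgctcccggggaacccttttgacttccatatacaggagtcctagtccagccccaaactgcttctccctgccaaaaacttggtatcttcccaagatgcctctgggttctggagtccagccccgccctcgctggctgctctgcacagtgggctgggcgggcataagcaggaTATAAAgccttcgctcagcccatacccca

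All motifs were searched on both strands of the 250 upstream bases of 32851 RefSeq promoters, of which 12 belong to 9 of the 10 genes, all but Sod3. TGACNNNGC occurred in 10.2% of all promoters and, among these genes, in Sod1 (on the minus strand, first base 56 bases before the start) and Prdx1. TTCNNNGAA, whose form reads the same on both strands, occurred in 7.02% of all promoters and in Sod2 alone of these genes, 185 bases before the start. TATAAA occurred in 12.4% of all promoters and in Sod1, Nqo1 and Prdx1. The GC box GGGCGG, left in lower case above, occurred in 32.7% of all promoters and in 7 of the 9 genes, with 4 matches each in Sod1 and Sod2. Nqo1, the gene most often used to read Nfe2l2 activity, had no TGACNNNGC in this window, which says nothing of the rest of its regulatory sequence.

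The deposited intensities were already scaled to a common trimmed mean between arrays. The array of mouse 5 stood apart in the ratio of the 3′ to the 5′ probe set of the control transcript Gapdh, at 2.67 against 0.794 to 1.07 in the other mice, and in that of pyruvate carboxylase, at 40.7 against 2.64 to 9.17, while its actin ratio of 1.60 lay among the others. Such ratios rise where RNA or its copies are incomplete at the 5′ end. Hepatocyte markers were bright in every liver, with summed intensities between 94627 and 129567 over the 8 of 10 markers measured. Where mouse 5 sets the range of an enzyme gene, the range without it is given too.

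Most of the 9 genes were held within a narrow range across the livers. The highest mouse had between 1.28 and 1.70 times the intensity of the lowest for 7 of the 9 genes. Gpx3 spanned 5.53-fold and Nqo1 spanned 3.12-fold. Whether any gene varied more between mice than its brightness predicts was tested for each probe set. A one-sided F test compared each variance with the variance that limma fits at that brightness, with Benjamini-Hochberg adjustment over 6265 probe sets. It passed 0 of the 9 genes and 0% of all probe sets, so its adjusted p-values could single out no gene. The F test's unadjusted p was under 0.05 for 0 of the 9 genes, beside 6.38% of all probe sets (400 of 6265).

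Sod1, the cytosolic dismutase, had intensities of 13953, 12685, 12863, 14213, 16850.5, 12056, 13606 and 10420 in mice 1 to 8. Its mean was 13331 ± 1866 (SD, n = 8), and its highest mouse had 1.62 times the intensity of its lowest. Mouse 5 was the highest and mouse 8 the lowest, and without mouse 5 the range was 1.36-fold. The SD of its log2 intensity was 0.20, at percentile 37.0 among 4869 tested genes.

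Sod2, the mitochondrial dismutase, had intensities of 1502, 1196, 1414, 1471, 1829, 1345, 1702 and 1639 in mice 1 to 8, with a mean of 1512 ± 204 (SD, n = 8). Mouse 5 was again the highest, mouse 2 the lowest, and the range was 1.53-fold, or 1.42-fold without mouse 5. Sod3, the extracellular dismutase, had intensities of 744, 730.4, 720.4, 686, 593, 881, 572 and 586 in the same order, with a mean of 689 ± 104 (SD, n = 8). Here mouse 6 was the highest, and mice 5, 7 and 8 lay close together at the low end. The order of the livers therefore differed between the 3 dismutases.

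Cat, the peroxisomal catalase, had intensities of 7580.1, 7757, 6469, 9212, 5893, 5409.5, 7524 and 5848 in mice 1 to 8, with a mean of 6962 ± 1278 (SD, n = 8). Mouse 4 was the highest and mouse 6 the lowest, 1.70-fold apart. Mice 3, 5, 6 and 8 lay below the other 4. A second, dimmer probe set of Cat, of the type that shares probes with related transcripts, had intensities of 922.5, 756, 789, 588, 662, 654, 832 and 779. It was lowest in mouse 4, where the brighter one was highest, and the Pearson correlation between the 2 probe sets over the 8 mice was 0.011. The values of Cat are therefore those of 1 probe set that the other did not follow.

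Gpx1, the main glutathione peroxidase inside cells, had intensities of 1024, 869.7, 928, 822, 839, 801, 1019 and 909 in mice 1 to 8, with a mean of 902 ± 85.2 (SD, n = 8). Its range of 1.28-fold was the narrowest of the 9 genes. Gpx4, which reduces lipid peroxides, had intensities of 1595, 1815, 1962, 1801, 1499.7, 1703, 1642 and 1624, with a mean of 1705 ± 147 (SD, n = 8) and a range of 1.31-fold, or 1.23-fold without mouse 5, the lowest. Their log2 SDs of 0.13 and 0.12 lay at percentiles 10.5 and 7.72 of all tested genes, so both were among the steadier transcripts of these livers.

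Gpx3, the plasma form, had intensities of 161, 237.5, 55.8, 205, 223, 309, 206 and 264 in mice 1 to 8, with a mean of 208 ± 75.3 (SD, n = 8). Mouse 3, at 55.8, lay far below the other 7, which ran from 161 in mouse 1 to 309 in mouse 6. The log2 SD was 0.76 (percentile 95.6) and fell to 0.30 without mouse 3. The F test gave Gpx3 a variance ratio of 5.0, with an unadjusted p of 0.0752 and an adjusted p of 0.881. A chi-square test, which takes the variance predicted from brightness as exact, gave an adjusted p of 0.00013. That test called 18.3% of all probe sets (1147 of 6265) and 1 of the 9 genes, Gpx3.

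Prdx2, the cytosolic peroxiredoxin, had intensities of 3727, 3609, 4218, 4413.5, 5059.9, 3736, 4303 and 3559.8 in mice 1 to 8, with a mean of 4078 ± 518 (SD, n = 8). Mouse 5 was the highest and mouse 8 the lowest, 1.42-fold apart, and without mouse 5 the range was 1.24-fold. A second Prdx2 probe set averaged 116, below the level for testing, and another had no value above 5.4, under the floor of 37.2 set for dim values. Mouse 5 had 1.31 times the mean of the other 7 mice for Sod1, 1.25 times for Sod2 and 1.28 times for Prdx2. The 3′ to 5′ ratios of Gapdh and pyruvate carboxylase, but not that of actin, were highest in the same mouse, and their part in these values was not tested.

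Nqo1, the quinone reductase, had intensities of 174, 181, 129.5, 165, 212, 404, 187 and 262 in mice 1 to 8, with a mean of 214 ± 85.8 (SD, n = 8). Mouse 6 was the highest, followed by mouse 8, and mouse 3 was the lowest. The log2 SD was 0.50, close to the 90th percentile, and fell to 0.31 without mouse 6. A dimmer Nqo1 probe set, between 101 and 235 and below the level for testing, was also highest in mouse 6 and followed the brighter one with a Pearson correlation of 0.79 over the 8 mice, and of 0.97 without mouse 5. Both Nqo1 probe sets are of types whose probes need not be unique to a gene. The F test gave Nqo1 an unadjusted p of 0.215 and an adjusted p of 0.989.

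**Figure D1:**
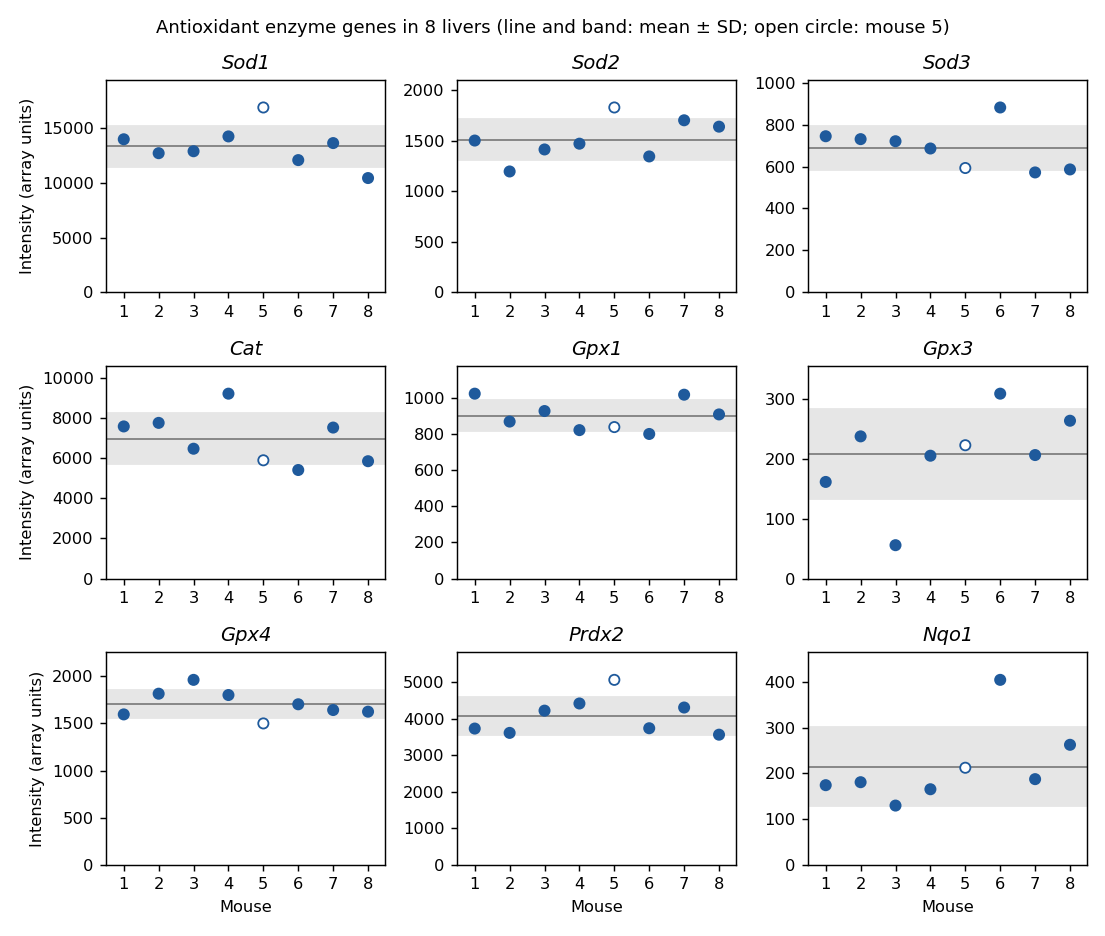
Deposited intensity (array units, from 0) of the 9 antioxidant enzyme genes in each of the 8 mice; 1 point is 1 liver, the line and band are the mean ± SD over the mice, and the open circle is mouse 5. Gpx3 in mouse 3 (55.8) and Nqo1 in mouse 6 (404) lie farthest outside their bands, and mouse 5 is the highest for Sod1, Sod2 and Prdx2.

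The median log2 SD of the 9 genes was 0.20, beside 0.23 over all 4869 tested genes. Cat, Gpx3 and Nqo1 lay above that median, and the other 6 lay below it. Gpx3 and Nqo1 were the dimmest of the 9 and exceeded the 90th percentile of all genes, 0.50 on the same scale. Dim probe sets varied more in general, as the plot of spread against brightness shows.

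**Figure D2:**
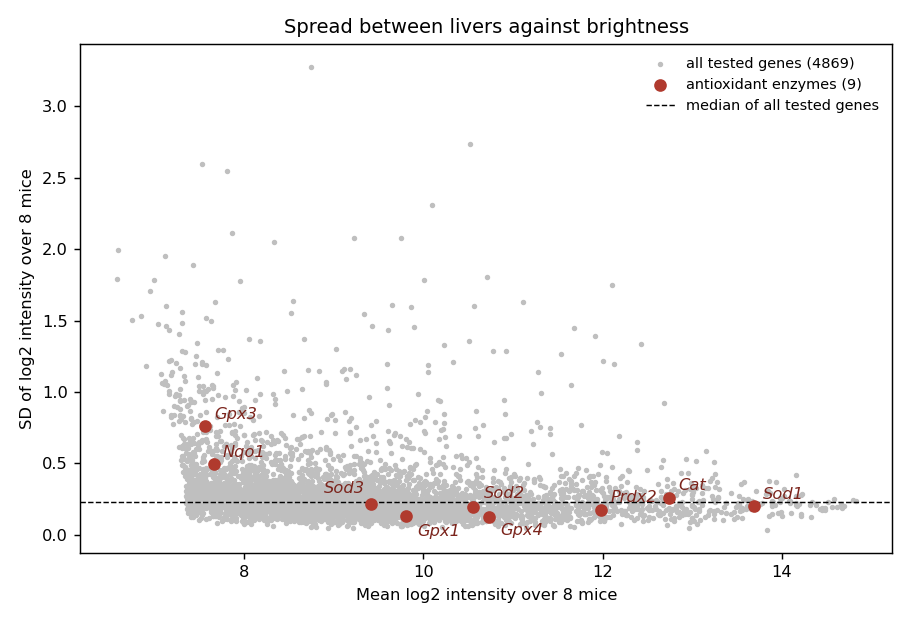
SD of log2 intensity over the 8 mice (vertical) against mean log2 intensity (horizontal) for 4869 tested genes in grey and the 9 antioxidant enzyme genes in red; the dashed line is the median SD of all genes, 0.23. Gpx3 (0.76) and Nqo1 (0.50) stand high at the dim end, and the other 7 lie near or below the line.

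In earlier results of these data the livers differed most in genes induced by interferon, which are switched on in immune and inflammatory responses. An interferon score was computed for each mouse by averaging the deviations of 23 such genes from their own means, on the log2 scale. The scores of mice 1 to 8 were -0.23, 0.17, 0.73, -1.32, -1.21, 1.88, -1.45 and 1.43. None of the antioxidant enzyme genes is part of the score. Each gene's log2 intensity was regressed on it with limma, and p-values were adjusted over the 6238 probe sets outside the score. The mice were kept as a continuous scale and not divided into groups.

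No antioxidant enzyme gene passed the adjusted threshold of 0.05 against the score over all 8 mice: 0 of 9, beside 6.94% of all probe sets (433 of 6238, 289 of them higher and 144 lower with a higher score). That is 4.63% higher and 2.31% lower. When every array was brought to the same median, 221 probe sets were higher and 300 lower, and still 0 of the 9 passed. With unadjusted p-values the limma test passed 2 of the 9, Sod1 and Cat, beside 22.3% of all probe sets, and an exact permutation test of the Pearson correlation, adjusted over all probe sets, passed 0 of 9, beside 4.02% of all (251 of 6238). The same test of the Spearman correlation passed 0 of 9 and 0% of all, so its adjusted p-values could single out no gene. Sod1 had a slope of -0.12 ± 0.044 (SE) log2 units per unit of score, with a 95% interval of -0.22 to -0.03 and a limma adjusted p of 0.131. Without mouse 5 the slope was -0.10 (limma adjusted p 0.217). Its Pearson correlation with the score was -0.788 (exact permutation p = 0.0138, adjusted 0.123) and its Spearman correlation -0.786 (exact p = 0.0279, adjusted 0.235) over 8 mice. Without mice 6 and 8, the 2 farthest from the median score, its Pearson correlation was -0.622.

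Cat had a slope of -0.13 ± 0.058 (SE), with a 95% interval of -0.26 to -0.01 and a limma adjusted p of 0.205. Without mouse 5 the slope was -0.19 ± 0.044 and the limma adjusted p 0.0373, which passes the threshold; 6.14% of all probe sets passed with those 7 mice. That call came from leaving out 1 mouse of 8, and the second Cat probe set had a slope of -0.01 without mouse 5 (limma adjusted p 0.973). With both Cat probe sets averaged, the slope over 8 mice was -0.06 (limma adjusted p 0.540). The Pearson correlation of Cat with the score was -0.653 (exact permutation p = 0.0816, adjusted 0.305) and the Spearman correlation -0.643 (exact p = 0.0962, adjusted 0.388). Without mice 6 and 8 the Pearson correlation was -0.234, over a narrower range of scores and with mouse 5 still included.

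Prdx2 had a slope of -0.10 ± 0.045 (SE; limma adjusted p 0.232), and -0.07 without mouse 5. Nqo1 had the steepest slope of the 9, at 0.21 ± 0.12 (SE), with a 95% interval of -0.04 to 0.47 and a limma adjusted p of 0.323. The slope of Nqo1 was 0.04 without mouse 6. Its Pearson correlation of 0.545 with the score (exact permutation p = 0.161, adjusted 0.435) became -0.679 without mice 6 and 8, so its direction rests on those mice. The Spearman correlation was 0.381 (exact p = 0.360, adjusted 0.672).

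Sod2, the member known to answer to cytokines, had a slope of -0.07 ± 0.054 (SE), with a 95% interval of -0.19 to 0.05 and a limma adjusted p of 0.509, and without mouse 5 it was -0.04. In the same livers 9 of 10 tested genes of an inflammation list (13 measured) rose with the score, beside 4.63% of all probe sets. Their median slope was 0.60. Without mouse 6 that count was 3 of 10, and without mouse 8 it was 4, with median slopes of 0.62 and 0.53. Sod2's difference from those genes was not tested. Sod3 had a slope of 0.09 ± 0.057 (limma adjusted p 0.409), which was 0.03 without mouse 6 and 0.15 without mouse 8. The 3 glutathione peroxidases had slopes of -0.02 ± 0.048 for Gpx1, 0.02 ± 0.20 for Gpx3 and 0.02 ± 0.044 for Gpx4, each with an adjusted p of at least 0.818. For Gpx3 the interval, -0.43 to 0.47, leaves room for large slopes in either direction.

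**Figure D3:**
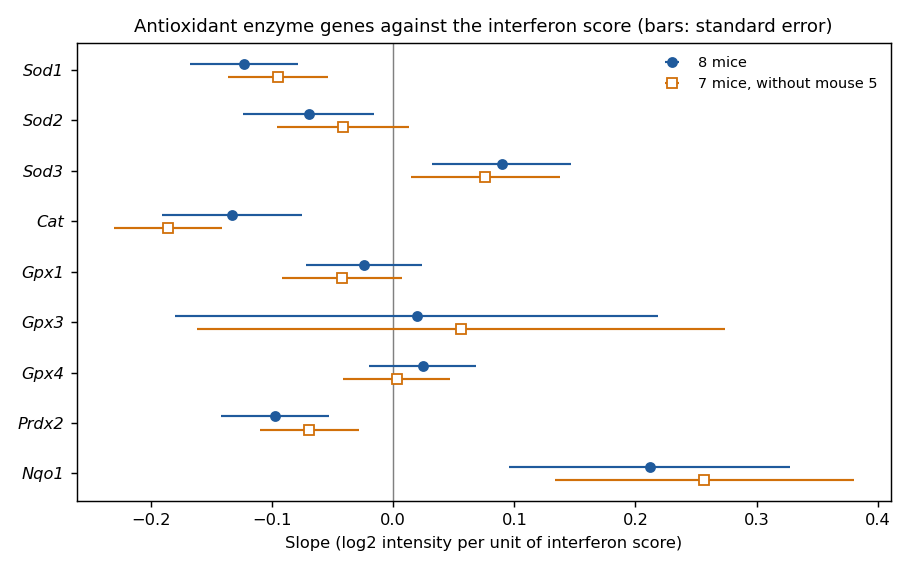
Slope of log2 intensity on the interferon score (horizontal, log2 units per unit of score) for the 9 antioxidant enzyme genes, with 8 mice (filled circles) and with 7 mice, without mouse 5 (open squares); bars are the standard error from limma. Cat moves from -0.13 to -0.19 without mouse 5, the only change that crosses the adjusted threshold, and the bars of Gpx3 are the widest.

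Most markers of macrophages, and a few of other cell types, moved with the score. Of 13 tested macrophage markers (14 measured) 12 rose with it, among them Lgals3, Lyz2 and Mpeg1, beside 4.63% of all probe sets. The summed intensity of the list ran from 6559 to 43480 over the mice. The count was 6 of 12 without mouse 6 and 7 of 13 without mouse 8, beside 1.71% and 2.66% of all probe sets in either direction. Of 3 tested T and NK cell markers (7 measured) 2 rose. Ccl5 had a slope of 1.81 ± 0.30 and Ltb of 1.08 ± 0.15 (SE, limma adjusted p 0.00769 and 0.00231). In mice 2, 4, 5 and 7 Ccl5 lay between 15.1 and 30, under the floor, so it passed the brightness filter through the other mice. Of 5 tested stellate cell markers (7 measured) 1 rose, Col1a1 (slope 0.39, limma adjusted p 0.00267). The limma test passed 0 of 2 neutrophil, 0 of 4 endothelial, 0 of 1 cholangiocyte, 0 of 4 B and plasma cell, 0 of 8 hepatocyte and 0 of 1 adipocyte markers. No macrophage marker was below the floor in every mouse. Erythrocytes carry much Sod1, Cat and Prdx2 of their own: 0 of 2 tested erythrocyte markers passed the limma test, 1 of them with an unadjusted p under 0.05, and the mean of their log2 deviations ran from -0.45 in mouse 6 to 0.30 in mouse 4. The alpha globin gene Hba-a1 ran from 4393 in mouse 8 to 11685 in mouse 5, and its highest value without mouse 5 was 11574, in mouse 4. Mice 8 and 5 are also the lowest and the highest for Sod1 and Prdx2, but not for Cat, which was highest in mouse 4 and lowest in mouse 6. Alas2, the other tested erythrocyte marker, did not share that order. It ran from 809.6 in mouse 6 to 1298.5 in mouse 7, with 1054.8 in mouse 5 and 1256.3 in mouse 8. The part of any of these cell types in the enzymes' values was not tested, and in whole liver fewer cells of a type and less RNA per cell cannot be told apart.

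The enzymes' profiles over the livers showed no more likeness than those of tested genes in general. Over the 8 mice the median Pearson correlation of the 36 pairs of genes was -0.13, beside 0.0022 over all pairs of tested genes. With arrays brought to the same median, that of the 36 pairs was 0.06. Above 0.5 lay 3 pairs (8.33%, beside 14.5% of all pairs), and 4 lay below -0.5 (11.1%, beside 14.1%). These correlations share mice and arrays and are descriptions.

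Sod1 and Prdx2 had the highest correlation, with a Pearson r of 0.83 over 8 mice and 0.65 without mouse 5. Gpx3 and Nqo1 followed with 0.75, which was also 0.75 without mouse 5. Sod2 and Prdx2 had 0.61, which dropped to 0.32 without mouse 5. Sod1 and Cat went the other way, with 0.28 over 8 mice and 0.78 without mouse 5. At the low end Sod2 and Sod3 had -0.78, Sod2 and Gpx4 -0.71, Cat and Nqo1 -0.65 and Gpx3 and Gpx4 -0.58. The mitochondrial and the extracellular dismutase were thus opposite in order: mouse 2 was lowest for Sod2 but among the 3 highest for Sod3.

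**Figure D4:**
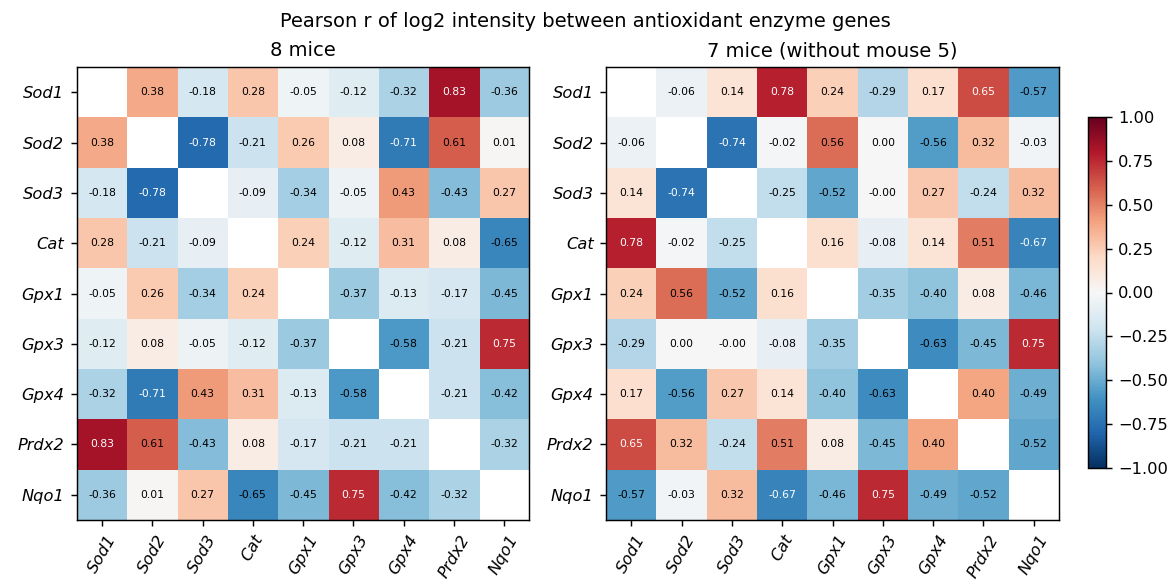
Pearson correlation of log2 intensity between each pair of the 9 antioxidant enzyme genes, over 8 mice (left) and over 7 mice without mouse 5 (right); red is positive and blue negative, from -1 to 1. Sod1 with Prdx2 (0.83) and Sod2 with Sod3 (-0.78) are the extremes on the left, and Sod1 with Cat becomes the highest on the right (0.78).

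For each gene, the most similar profiles among the other 4868 tested genes were taken by Pearson correlation over the 8 mice. Sod1 was closest to Atf4, a transcription factor of the amino acid and stress response (r = 0.990), and to S100a1, a calcium binding protein (0.988). Sod2 was closest to Acly (0.931), which makes cytosolic acetyl-CoA, and Kpna1 (0.929), a nuclear import receptor. Sod3 was closest to Tcof1 (0.957) and Nfil3 (0.930), and Cat to Ebp (0.982), a sterol isomerase, and Tst (0.965), a mitochondrial sulfurtransferase.

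Gpx1 was closest to Col9a3 (0.969) and Kcnq1 (0.942), and Gpx3 to Acad9 (0.955) and Pkn2 (0.951). Gpx4 was closest to Foxa3 (0.920), a hepatocyte transcription factor, and Nav2 (0.907). Prdx2 was closest to Tlcd4 (0.961) and Ndufa5 (0.958), a subunit of respiratory complex I, and Nqo1 to Sowahc (0.960) and Smpdl3a (0.960). With this many candidates and 8 mice, high values are common. The highest correlation of a tested gene with any other had a median of 0.961, and between the 10th and 90th percentile it ran from 0.926 to 0.985. Only Sod1 exceeded the 90th percentile, and the best match of Gpx4 lay under the 10th.

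The genes that supply and surround these enzymes were read through 7 lists, which held 118 genes, 82 of them measured and 70 tested. Of the 70, 8 rose with the interferon score and 3 fell, which is 15.7%, beside 6.94% of all probe sets. The median slope of the 70 was -0.03. The adjusted F test of spread called 0 of the 70 and 0% of all probe sets. The unadjusted F test called 7, beside 6.38% of all, and the chi-square test 12, beside 18.3%. The median log2 SD of the 70 was 0.24. Fewer calls were made with a mouse of high score left out, here and over all probe sets. Without mouse 6 only Cyba and Cybb passed, beside 1.71% of all probe sets (106), and without mouse 8 only these and Hmox1, beside 2.66% (165). Without mouse 4 there were 7 calls, beside 4.85% (303). When every array was brought to the same median the balance turned: 3 of the 70 rose (Cyba, Cybb and Hmox1) and 9 fell, beside 8.36% of all probe sets. Txn1, Gclc, Pgd, Cp and Xdh then had slopes in the same direction with adjusted p-values between 0.0556 and 0.0730. Over all 8 mice, the exact permutation test of the Pearson correlation passed Txn1, Hmox1, Cyba and Cybb, beside 4.02% of all probe sets. Their adjusted p-values in that test lay between 0.0273 and 0.0342. It did not pass Abcd3, Cp, Hao2, Pgd, Gclc, Tfrc and Xdh, with adjusted p-values from 0.0738 to 0.148.

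Thioredoxin and glutathione genes come first, since thioredoxin and glutathione recharge the peroxiredoxins and glutathione peroxidases, and genes around Nfe2l2 follow. Of 11 other peroxiredoxins, thioredoxins and reductases, 1 rose and 0 fell, beside 6.94% of all probe sets. Lists this small can hold 1 or 2 calls at that share, so such counts are not results about the lists. Txn1, the thioredoxin that reduces Prdx1 and Prdx2, ran from 4307 in mouse 7 to 7161 in mouse 8, with a slope of 0.21 ± 0.038 (SE) and a limma adjusted p of 0.00808. The 2 mice with the highest scores, 6 and 8, were also the highest for Txn1. Without mouse 6 its adjusted p was 0.0589, while its slope stayed between 0.20 and 0.23 whichever mouse was left out.

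Of 10 genes of glutathione synthesis and recycling, 1 rose and 0 fell, beside 6.94% of all probe sets. Gclc, the catalytic subunit of the enzyme that limits glutathione synthesis, ran from 1865 in mouse 4 to 3621 in mouse 6, with a slope of 0.25 ± 0.057 (SE) and a limma adjusted p of 0.0269. Of 17 tested genes around Nfe2l2, 2 rose and 0 fell, beside the same 6.94%. Hmox1, the heme oxygenase, ran from 730 in mouse 5 to 3501 in mouse 6, with a slope of 0.50 ± 0.096 (SE) and a limma adjusted p of 0.0134. Its lowest value without mouse 5 was 777.6, in mouse 4. Pgd, a pentose phosphate enzyme that makes NADPH, ran from 507.5 in mouse 4 to 1124 in mouse 6, with an adjusted p of 0.0419. Nqo1, from the same regulon, was likewise highest in mouse 6 but did not pass. Without mouse 6 the slope was 0.21 for Gclc (adjusted p 0.201), 0.31 for Hmox1 (0.0632) and 0.21 for Pgd (0.245). With each mouse left out in turn, Gclc passed in 4 of 8 fits, Hmox1 in 7 and Pgd in 2. Gclc and Pgd also failed without mouse 5.

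Selenoprotein genes matter because Gpx1, Gpx3 and Gpx4 contain selenocysteine. The limma test passed 0 of 5 tested genes of that list, beside 6.94% of all probe sets, and the list's median slope was -0.05. Its unadjusted p was under 0.05 for 0 of the 5, beside 22.3% of all probe sets. The largest spread was that of Sephs2, which makes the selenium donor (4565 to 7433), and Selenos (499 to 783). Mouse 5 was the lowest for Sephs2, and without it the lowest value was 4952, in mouse 8. Of 8 genes of copper, manganese and iron supply, 1 rose and 1 fell, beside the same 6.94%. Cp, ceruloplasmin, ran from 6805 in mouse 7 to 12855 in mouse 8, with a limma adjusted p of 0.0160, while Tfrc, the transferrin receptor, ran from 4448 in mouse 1 down to 1140 in mouse 6, with a slope of -0.53 ± 0.10 (SE) and an adjusted p of 0.0139. Without mouse 6 the slope was 0.26 for Cp, beside 0.23 with all mice (adjusted p 0.0757), and -0.50 for Tfrc (0.121). With each mouse left out in turn, Cp and Tfrc each passed in 6 of 8 fits.

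Among 9 tested oxidases that make superoxide or peroxide, 3 rose and 1 fell, beside 6.94% of all probe sets. Cybb and Cyba, the membrane subunits of the phagocyte NADPH oxidase, had the steepest slopes. Cybb ran from 52.1 in mouse 7 to 1132 in mouse 8, with a slope of 1.11 ± 0.14 (SE) and a limma adjusted p of 0.00152. Cyba ran from 264.5 in mouse 7 to 2300 in mouse 6, with a slope of 0.79 ± 0.11 (SE) and a limma adjusted p of 0.00259. Both passed with each mouse left out in turn, with adjusted p-values of at most 0.00726 for Cybb and 0.0260 for Cyba. The macrophage markers rose with the score too, and their part in these 2 genes was not tested. Xdh, xanthine oxidoreductase, also rose, with an adjusted p of 0.0373.

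Hao2, a peroxisomal hydroxyacid oxidase, fell with the score: mouse 4 had 2266 and mouse 6 had 306, with a slope of -0.66 ± 0.13 (SE) and a limma adjusted p of 0.0155. Of 10 tested genes of peroxisome assembly and import, where catalase is housed, 0 rose and 1 fell, beside 6.94% of all probe sets. With arrays brought to the same median 0 rose and 4 fell, Abcd3, Pex6, Pex7 and Pex19, beside 8.36% of all probe sets. Abcd3, a peroxisomal membrane transporter, ran from 5580 in mouse 5 to 2356 in mouse 6, with a slope of -0.28 ± 0.059 (SE) and a limma adjusted p of 0.0169. Its highest value without mouse 5 was 4106, in mouse 4. The median slope of that list was -0.12. Cat had -0.13 by its brighter probe set, 0.01 by its second and -0.06 with both averaged. Without mouse 6 the slope was -0.53 for Hao2 (adjusted p 0.154), -0.30 for Abcd3 (0.0959) and 0.53 for Xdh (0.235), the last beside 0.60 with all mice. With each mouse left out in turn, Hao2 passed in 5 of 8 fits, Abcd3 in 6 and Xdh in 2. Xdh also failed without mouse 5.

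**Figure D5:**
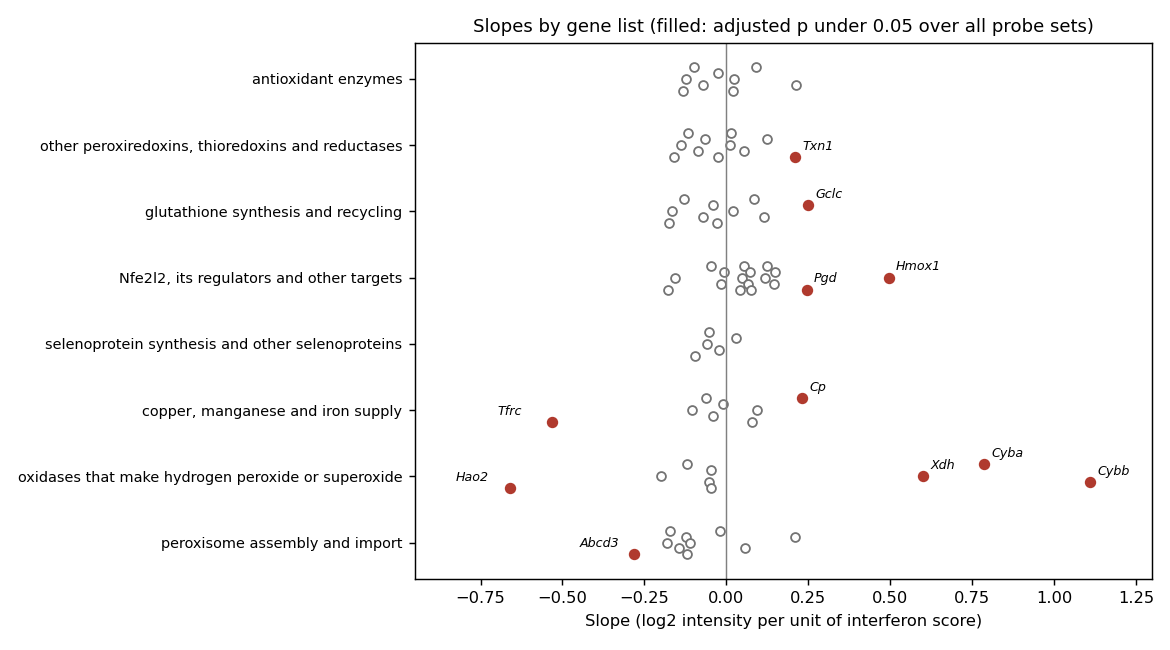
Slope of log2 intensity on the interferon score (horizontal) for every tested gene of the antioxidant enzymes and of 7 related lists (1 row of points per list); filled red points have a limma adjusted p under 0.05 over all probe sets and are named. The 9 antioxidant enzymes hold no filled point and run from -0.13 to 0.21, while Cybb (1.11) and Hao2 (-0.66) lie at the ends.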

How the data were processed

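The deposited intensities are linear, and the authors had already scaled them: with 2% of probe sets trimmed at each end, the array means lay between 499.87 and 499.89. The summarization software, background correction and scaling target are not given in sources used here. No centring of genes was found in the values, and a single-colour intensity has no direction to settle. The medians of the arrays of mice 1 to 8 were 168.8, 167.95, 166.3, 157.45, 145.55, 173.95, 165.45 and 177. The array's name and the Hewlett-Packard GeneArray scanner are per the labels.

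Values under 37.2 (the 25th percentile of all values) were raised to it before log2 was taken. Testing covered 6265 of 12488 probe sets, those whose mean reached 165.2 (the median of all values), without 66 control probe sets. In the annotation 10833 probe sets had 1 symbol, 396 had several and 1193 had none. Spread was tested with limma 3.58.1 in R 4.3.3: squeezeVar with trend and robust options, then a one-sided F test with 3.80 prior degrees of freedom. Slopes came from lmFit and eBayes (trend, robust), two-sided. P-values were adjusted by Benjamini-Hochberg over all tested probe sets. Exact permutation tests, two-sided, ran over the 40320 pairings of the 8 mice. The F test and the limma slopes were checked on simulated data in which unaltered probe sets all had the variance predicted from brightness. The spread of variances between genes was not simulated, so this check cannot show what the F test can call here.

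The genes and lists were chosen with earlier results of these data known. From each list up to 3 genes past the slope threshold were named, or else the 2 with the largest SD, and for each enzyme the 2 genes with the highest correlation. Xdh, Pex6, Pex7 and Pex19 were named after their values were seen. Settings varied were scaling, floor, brightness filter, probe set choice, variance model, score and each mouse left out.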

Additional observations from a re-analysis of the deposited data

Results flagged for a closer look

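A mouse counted as standing apart if the gap to its nearest neighbour, divided by the range of the 8 values, exceeded 0.526. Chance gives such a gap about once in 20 sets that were not chosen by their values. The 33 list genes had been chosen for their slope or SD in these data, so that rate does not apply to them. In all, 45 sets of values were examined (9 enzyme genes, 33 list genes and 3 control ratios), of which 6 had one.

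Gpx3 was the only antioxidant enzyme gene among them: mouse 3 had an intensity of 55.8, with a gap of 0.621 of the range on the log2 scale. Mouse 5 stood apart in the 3′ to 5′ ratio of Gapdh, at 2.67, and of pyruvate carboxylase, at 40.7. Mouse 5 also had the lowest Hnf4a, a hepatocyte transcription factor, at 266. Mouse 6 stood apart in S100a8, a neutrophil gene, at 556, and in Alas2, the erythroid enzyme of heme synthesis, at 809.6.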

How the results depend on the processing

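Of 149 alternative values for the slopes of the 9 enzymes, 141 kept their direction and their side of the threshold, Cat without mouse 5 passed it (the report gives that value), and 7, none of them past the threshold, changed sign. These were Gpx3 (-0.034) and Gpx4 (-0.027) with arrays scaled to a common median, Gpx3 (-0.018) with quantile normalization, Gpx1 without mouse 6 or 7 (over all mice left out in turn, -0.050 to 0.010) and Gpx3 without mouse 6 or 8 (-0.17 to 0.15); the cause was not tested. Leaving out each mouse in turn, 0 to 1 of the 9 passed the slope test and 0 passed the F test. The median log2 SD of the enzymes ran from 0.17 to 0.22, and the median correlation between them from -0.18 to -0.02. Of the 70 related genes 2 to 12 passed, and 106 to 440 of all probe sets. Without the brightness filter 5 related genes and 229 probe sets passed, with more probe sets tested. The chi-square test of spread passed 1 of the 9 enzymes and 1147 probe sets, against 0 of either by the F test. The median correlation between the enzymes was 0.06 with arrays scaled to a common median and -0.17 with Spearman's rho. No paired analysis was possible because the mice form 1 group. With 8 arrays, slopes of Gpx3 and Nqo1, the dimmest of the 9, were the least precise.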
